A study of Mus musculus with 4 samples.

Results

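Of the 13658 genes with a row in the authors' deposited table, 10 genes of antigen presentation were followed in mouse morulae injected with siRNA against Nr1h2. They were the major histocompatibility complex (MHC) class II chains H2-Eb1, H2-Ab1 and H2-Aa, the invariant chain gene Cd74, the class I heavy chains H2-K1 and H2-D1, the class I light chain B2m, and the peptide loading genes Tap1, Tap2 and Tapbp. All 10 symbols were present. The set was chosen by name, and with knowledge that class II chains lay higher after the knockdown in this same comparison, so the fold changes below are a description of the members and support nothing about them as a set. Wild-type fertilized mouse eggs received 4 to 5 pL of 100 µM small interfering RNA, either a pool against Nr1h2 (siNr1h2, 2 samples) or a non-targeting control (siNT, 2 samples), and were cultured in M16 medium to the morula, the compacted stage before the blastocyst. Nr1h2 encodes the liver X receptor LXRβ, a nuclear receptor activated by oxysterols. The labels give neither the mouse strain, nor the number of embryos per sample, nor whether replicates were separate injections, so the p-values measure only the spread between these samples, which may be technical.

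MHC molecules display peptides at the cell surface. Class I molecules pair a heavy chain with β2-microglobulin and carry peptides of cytosolic proteins, which the TAP1-TAP2 transporter pumps into the endoplasmic reticulum and tapasin (Tapbp) helps to load. Class II molecules pair an α with a β chain (H2-Aa with H2-Ab1 in the I-A molecule, and H2-Eb1 as the β chain of I-E) and travel with the invariant chain CD74, which blocks their groove until it is degraded in endosomes. Class II genes are known mainly from antigen-presenting cells, where the coactivator CIITA acts at a promoter module of X and Y boxes bound by RFX, CREB and NF-Y factors. Preimplantation embryos are not a usual site of class II expression.

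The promoter sequences below show this module upstream of the class II chain that lay highest after the knockdown, H2-Eb1, and of H2-Aa, whose estimate lay near 0. They come from RefSeq (GRCm38.p6, a later build than the mm9 of the submitters' notes), which gave a promoter window for 7 of the 10 members, with no window for H2-Ab1, Cd74 or Tap2. Capitals mark the X box core GCAAC, the Y box CTGATTGG (an inverted CCAAT box) and, in H2-Aa, the cyclic AMP response element TGACGTCA beside the X box. The H2-Eb1 stretch is chr17:34305727-34305866 on the plus strand and the H2-Aa stretch chr17:34287824-34287963 on the minus strand. Each ends at the base before the annotated start and overlaps no GENCODE exon.
H2-Eb1: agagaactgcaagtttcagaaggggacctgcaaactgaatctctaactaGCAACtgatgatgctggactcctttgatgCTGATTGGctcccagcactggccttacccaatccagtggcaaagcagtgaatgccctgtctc
H2-Aa: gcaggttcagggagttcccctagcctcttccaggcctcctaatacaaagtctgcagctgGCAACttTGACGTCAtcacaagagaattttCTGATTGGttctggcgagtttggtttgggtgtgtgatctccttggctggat

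In both promoters the X box core preceded the Y box. The cores began 91 bases before the start of H2-Eb1 and 81 before that of H2-Aa, and the Y boxes 62 and 51 bases before. Searched on both strands over all 32851 RefSeq windows (250 bases before to 50 after a start), GCAAC was found in 35.2%, CTGATTGG in 4.10% and TGACGTCA in 1.79%. The letters CTGATTGG were present in 5 of the 7 members with a window, namely H2-Eb1, H2-Aa, H2-K1, H2-D1 and Tap1, and in neither B2m nor Tapbp. GCAAC was present in 4 of the 7, namely H2-Eb1, H2-Aa, H2-D1 and Tap1. The presence of these letters together with the Y box was thus not particular to the class II chains. Their arrangement differed, as the Y box letters of H2-D1 and Tap1 lay on the opposite strand. In H2-D1 they lay 53 bases before the start, with GCAAC at 212 and 14. In Tap1 they lay 222 bases before the start, ahead of GCAAC at 196. The liver X receptor repeat, AGGTCA followed after any 4 bases by AGGTCA, matched in 0 of the 7, against 0.0152% of all windows, and other forms of that element were not searched.

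The class I heavy chain promoters are shown over a stretch that H2-K1 and H2-D1 share. Capitals mark the NF-κB site GGGATTCCC and the complement of the interferon-stimulated element GAANNGAAA. H2-K1 is read from chr17:34000428-34000457 on the minus strand and H2-D1 from chr17:35262924-35262953 on the plus strand. The Tap1 line gives the first 30 of the 225 bases between the start of Psmb9, an immunoproteasome subunit gene, and that of its divergent neighbour Tap1 (chr17:34187331-34187360, plus strand), with the complement of the Y box in capitals. The H2-K1 stretch overlaps no GENCODE exon. The H2-D1 stretch overlaps 1 annotated exon and the Tap1 stretch 4, with an exon counted once for each transcript that lists it. The genes to which these exons belong were not recorded.
H2-K1: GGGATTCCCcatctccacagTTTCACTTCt
H2-D1: GGGATTCCCcatctcctcagTTTCACTTCt
Tap1: tttCCAATCAGcggctgcgcgcggtgcagg

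The H2-K1 and H2-D1 stretches were identical at 29 of 30 bases. The NF-κB letters were found in 116 of the 32851 windows (0.353%) and GAANNGAAA in 7.52%. Among the 7 members with a window, both were present in H2-K1 and H2-D1 and in no other. A match of letters is not a shown binding site.

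The targeted transcript was checked first. Per the authors' deposited table, Nr1h2 was 5.03 times lower after its siRNA (95% interval 3.89 to 6.50, DESeq2 adjusted p = 3.61e-31). The table holds 1 comparison and no value per sample. For each gene it gives a mean normalized count over all 4 samples (counts divided by size factors), a log2 fold change with its standard error (SE), and an adjusted p, and a gene is called here when its adjusted p is under 0.05. From the mean and the fold change, a mean level in each group was computed (the implied group mean), which is not a measured replicate value and has no SD. The authors' deposited table has an adjusted p for 12069 genes, 55 of them called higher and 184 called lower in siNr1h2. That split was 82 and 142 with fold changes centred on genes with a mean of at least 500, and 36 and 448 centred on ribosomal protein genes.

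Among the class II genes, both β chains were higher in siNr1h2 morulae. H2-Eb1 had an implied mean of 30.8 normalized counts in siNT and 86.0 in siNr1h2, around a mean normalized count of 58.4 in the authors' deposited table. Its deposited log2 fold change of 1.48 ± 0.38 (SE) is 2.79 times higher (95% interval 1.67 to 4.66, DESeq2 adjusted p = 0.00946, authors' deposited table). H2-Ab1, the β chain of I-A, had implied means of 108 in siNT and 220 in siNr1h2. Its deposited log2 fold change of 1.02 ± 0.25 (SE) is 2.03 times higher (95% interval 1.45 to 2.85, DESeq2 adjusted p = 0.00551, authors' deposited table). The 2 intervals overlap, so the table does not separate the β chains from each other in fold change.

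H2-Aa, the α chain that pairs with H2-Ab1, did not pass. Its implied means were 15.5 normalized counts in siNT and 14.8 in siNr1h2, and its log2 fold change was -0.06 ± 0.69 (SE) in the authors' deposited table (DESeq2 adjusted p = 0.986). At this low level the interval ran from -1.41 to 1.28 on the log2 scale, a span that includes the fold change of H2-Ab1, so a difference between the chains of I-A was not detectable at this depth. Cd74, the invariant chain, had implied means of 281 in siNT and 375 in siNr1h2. At 0.42 ± 0.19 (SE, log2, authors' deposited table) it did not pass (DESeq2 adjusted p = 0.292), and its interval of 0.05 to 0.78 lay above 0 before adjustment.

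**Figure D1:**
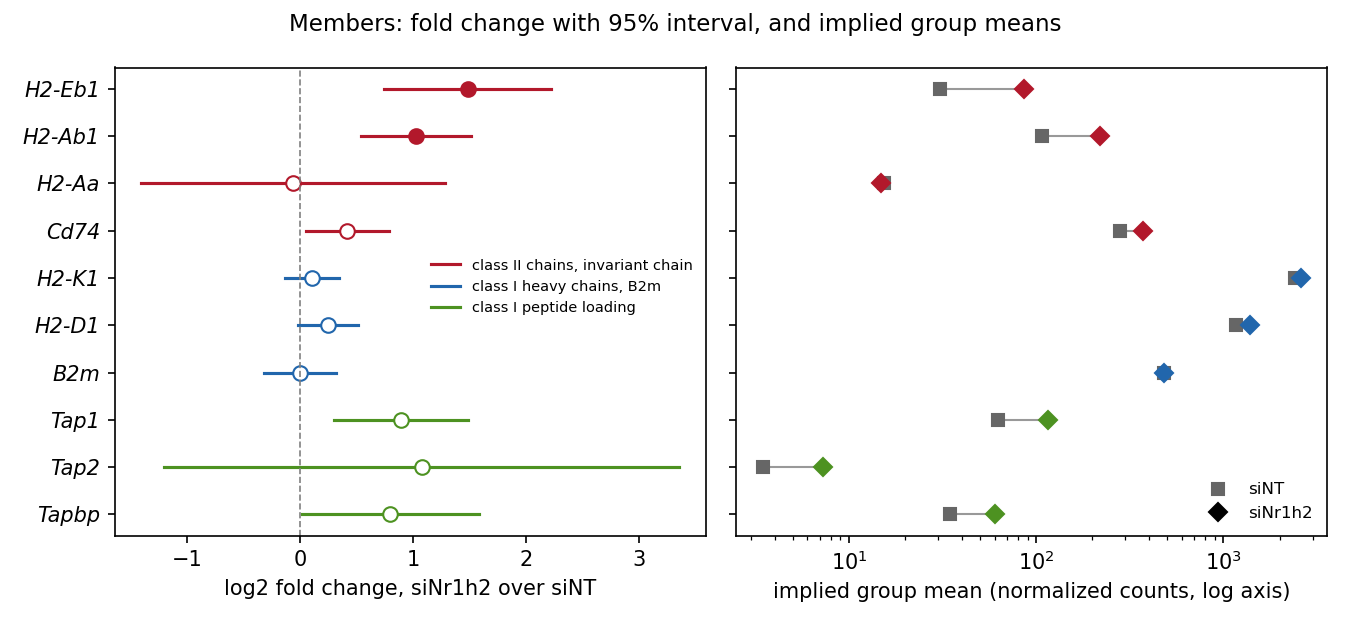
Left, log2 fold change of each member (siNr1h2 over siNT, authors' deposited values; bars, 95% intervals; filled points, adjusted p under 0.05). Right, implied group means in normalized counts on a log axis (squares siNT, diamonds siNr1h2). H2-Eb1 and H2-Ab1 are the filled points, the intervals of H2-K1, H2-D1, B2m, H2-Aa and Tap2 include 0, and those of Cd74, Tap1 and Tapbp lie above 0 with open points.

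The class I heavy chains and their light chain were the most abundant members and lay close to 0. H2-K1 had implied means of 2414 normalized counts in siNT and 2590 in siNr1h2 (log2 fold change 0.10 ± 0.12 (SE), 95% interval -0.14 to 0.34, DESeq2 adjusted p = 0.788, authors' deposited table). H2-D1 had implied means of 1166 and 1382 (0.24 ± 0.14, interval -0.02 to 0.51, DESeq2 adjusted p = 0.437, authors' deposited table). B2m had implied means of 481.3 in siNT and 480.6 in siNr1h2, with an interval of -0.32 to 0.32 on the log2 scale in the authors' deposited table. For these 3 genes the intervals excluded a change of 2 times in either direction. The means of H2-K1 and H2-D1 are uncertain, because 8.11% of the 50-base words of the longest H2-K1 transcript and 14.3% of those of H2-D1 also occur in transcripts of other genes (GENCODE, GRCm38; 25 genes for H2-K1 and 168 for H2-D1). The genes sharing most words with H2-K1 were H2-Bl, H2-Q7, H2-Q1 and H2-D1, and those sharing most with H2-D1 were H2-K1, H2-Q7, H2-Q1 and Gm8909. The treatment of such reads is not given in the sources used here. For H2-Eb1, H2-Ab1, Cd74 and B2m the share was 0, and for H2-Aa 0.630%.

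The peptide loading genes had log2 fold changes of 0.80 to 1.08, and none was called (2 of the 2 with an adjusted p had an unadjusted DESeq2 p under 0.05, as had 1602 of all 12069 tested genes). Tap1, a subunit of the peptide transporter, had implied means of 62.3 normalized counts in siNT and 116 in siNr1h2. Its log2 fold change was 0.89 ± 0.30 (SE, 95% interval 0.30 to 1.49) in the authors' deposited table, with a DESeq2 adjusted p of 0.102. Tapbp, tapasin, had implied means of 34.6 and 60.2 (0.80 ± 0.40, interval 0.01 to 1.58, DESeq2 adjusted p = 0.366, authors' deposited table). Tap2, the other transporter subunit, had a mean normalized count of 5.38, no adjusted p and, per the authors' deposited table, a log2 fold change of 1.08 ± 1.16, with an interval of -1.20 to 3.36 that allows a change of either sign. The library kit does not mark strand, and GENCODE exons on the opposite strand overlap those of Tap1 (212 bases of Psmb9), Tap2 (Gm15821 and Gm20496) and Tapbp (904 bases of Gm19412), so part of their reads may belong to those genes. By the same count of 50-base words, 21.0% of the longest Tapbp transcript and 12.6% of that of Tap2 also occur in transcripts of other genes, most often Gm19412 for Tapbp and Gm15821 for Tap2, against 0.647% for Tap1. The means of Tapbp and Tap2 are therefore uncertain too.

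In all, 2 of the 9 members with an adjusted p were higher and 0 were lower, where 0.456% of all tested genes were higher, 1.52% were lower and 1.98% were either. Because the set was picked on this contrast, nothing is read from that count. Log2 fold changes above 0 were seen for 8 of the 10 members, the exceptions being H2-Aa and B2m (9 with fold changes centred on genes with a mean of at least 500 or with the GC trend removed, 7 centred on ribosomal protein genes), and for 51.0% of all 13658 genes. Among the 55 higher genes H2-Eb1 ranked 12 and H2-Ab1 24 by fold change, and 1 and 13 among those whose mean was 50 normalized counts or more. The called genes next above H2-Eb1 in log2 fold change were Bbs10 (1.76), Pced1a (1.65) and Csad (1.65), and those next below were Lrch4 (1.29), Masp2 (1.20) and Capn6 (1.15), all from the authors' deposited table. Nearness here is a difference in log2 fold change of at most 0.33 within 1 comparison.

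**Figure D2:**
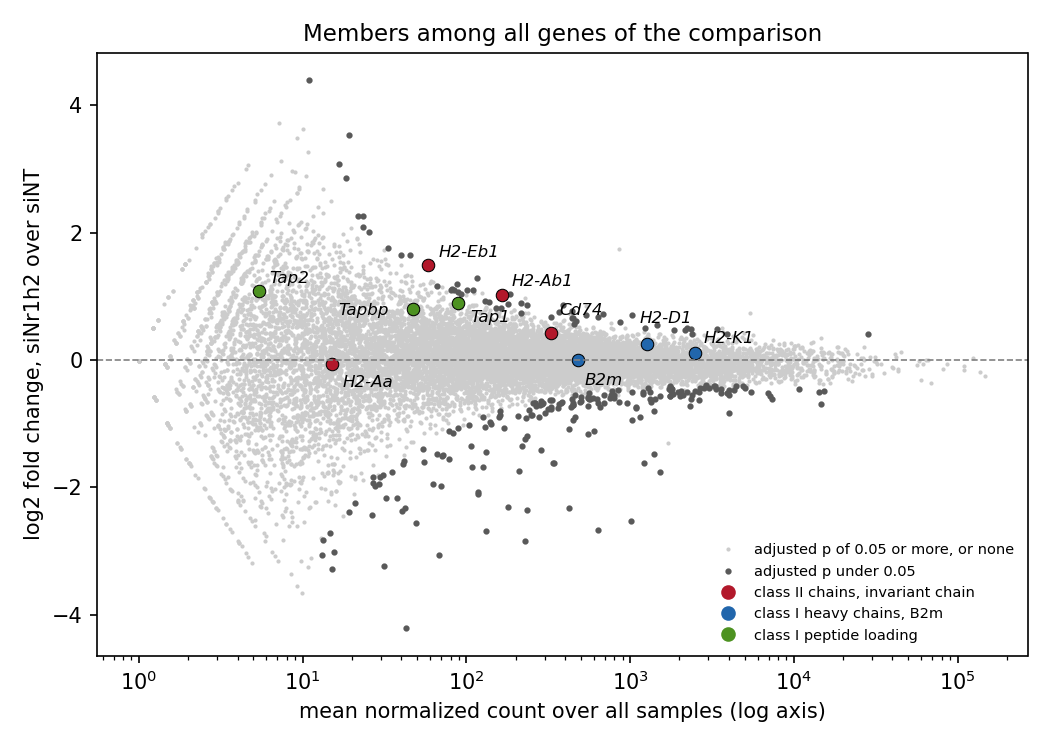
Log2 fold change (siNr1h2 over siNT) against mean normalized count over all samples (log axis) for all 13658 genes of the authors' deposited table; dark points have an adjusted p under 0.05, and members are coloured by role. H2-Eb1 and H2-Ab1 sit at log2 fold changes of 1.48 and 1.02, and the class I chains near 0 at higher means.

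Levels of different genes were compared only per kilobase of exon (GENCODE, GRCm38), as the mean normalized count over all samples divided by exon length. That length joins the exons of all annotated transcripts. It was 2579 bases for H2-D1 and 2568 for H2-Ab1, whose longest transcripts have 2102 and 1212, and 860 by either measure for B2m. Neighbours such as B2m and H2-D1 may therefore change places with another length. On that scale the order was H2-K1 at 852, B2m at 559, H2-D1 at 494, Cd74 at 195, H2-Ab1 at 63.8, H2-Eb1 at 30.0, Tap1 at 16.2, Tapbp at 13.1, H2-Aa at 3.99 and Tap2 at 1.42 normalized counts per kilobase. Among these 10 genes H2-K1, H2-D1 and B2m thus exceeded H2-Ab1, H2-Eb1 and H2-Aa, and Cd74 lay between these groups. The β chain H2-Ab1 and its partner H2-Aa stood far apart in level per kilobase. No spread over samples is given in the table, so neighbours in this order were not tested. The implied levels in siNT alone kept Cd74 (167) above H2-Ab1 (42.1), H2-Eb1 (15.8) and H2-Aa (4.07) per kilobase.

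The other class II chain genes with a row did not pass. H2-DMa and H2-DMb1, which form the peptide editor H2-DM, stood at 0.17 ± 0.25 (SE) and 0.18 ± 0.28 on the log2 scale (authors' deposited table). H2-Oa, a chain of its modulator H2-O, stood at -0.06 ± 0.27 in the authors' deposited table. With means of 111 to 216 normalized counts, these 3 genes were measured about as precisely as H2-Ab1. H2-Eb2, H2-Ob, H2-DMb2 and the I-E α chain gene H2-Ea had no row. The list of other class I heavy chains held 7 genes with an adjusted p. These were H2-Q7, H2-Q10, H2-T24 and H2-T9, and the class I-like genes Fcgrt, Procr and Cd1d1. None of the 7 was called in either direction by DESeq2, where 1.98% of all 12069 tested genes were called. An unadjusted DESeq2 p under 0.05 was found for 0 of the 7 (1602 of all 12069). Their median log2 fold change was -0.02, against 0.00 for all tested genes. H2-Q7 stood at 1.05 ± 0.83 and H2-Q10 at -0.63 ± 0.65 in the authors' deposited table.

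Among regulators of MHC transcription, 0 of 16 were called in either direction by DESeq2, where 1.98% of all 12069 tested genes were called. Of the 16, 3 had an unadjusted DESeq2 p under 0.05 (1602 of all 12069). The median log2 fold change was -0.02, and 6 lay above 0 (51.0% of all 13658 genes). At those shares nothing is read from 0 calls in so short a list. Ciita, the class II coactivator, had the smallest p of this list. Its log2 fold change was 1.01 ± 0.31 (SE) at a mean normalized count of 99.5 in the authors' deposited table, with a DESeq2 adjusted p of 0.0565 that missed the threshold. Creb1, a factor of the X box, stood at -0.50 ± 0.19, the RFX subunit genes Rfxank at 0.40 ± 0.20, Rfx5 at 0.70 ± 0.58 and Rfxap at -0.08 ± 0.19, and the NF-Y subunit gene Nfyb at -0.21 ± 0.14 in the authors' deposited table. The class I activator gene Nlrc5 had no row.

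Of 13 genes of interferon receptors and signalling with an adjusted p, 0 were called by DESeq2, where 1.98% of all 12069 tested genes were called. An unadjusted DESeq2 p under 0.05 was found for 1 of the 13 (1602 of all 12069). The median was 0.10, and 7 lay above 0 (51.0% of all 13658 genes). Ptpn2, a phosphatase that restrains JAK-STAT signalling, stood at -0.40 ± 0.13 (SE, DESeq2 adjusted p = 0.0739), and Jak1 at -0.26 ± 0.16 in the authors' deposited table. Next by p, Ifnar1 stood at 0.39 ± 0.26 and Irf3 at 0.44 ± 0.30 in the authors' deposited table. Irf1, Irf2, Irf7 and Irf8 had no row.

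Of 17 genes of class I folding, trimming and loading, 1 was higher and 0 were lower, where 0.456% of all tested genes were higher and 1.52% lower. Of the 17, 5 had an unadjusted DESeq2 p under 0.05 (1602 of all 12069), the median log2 fold change was 0.21 and 14 lay above 0 (51.0% of all 13658 genes). Calr, the lectin chaperone calreticulin of the loading complex, was 1.42 times higher (authors' deposited table, log2 fold change 0.51 ± 0.15 (SE), DESeq2 adjusted p = 0.0426). Its partners in the endoplasmic reticulum did not pass, with Hspa5 at 0.32 ± 0.12 and Pdia3, the oxidoreductase of the loading complex, at 0.24 ± 0.12 in the authors' deposited table. Psmb9, which shares the Tap1 promoter stretch shown above, stood at 0.95 ± 0.41 (DESeq2 adjusted p = 0.268) in the authors' deposited table, close to the 0.89 ± 0.30 of Tap1. Because the kit is unstranded and exons of these neighbours overlap, their values may not be independent. The constitutive proteasome subunit gene Psmb7 stood at -0.23 ± 0.12 in the authors' deposited table.

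None of the 13 class II antigen processing genes was called by DESeq2, where 1.98% of all 12069 tested genes were called. An unadjusted DESeq2 p under 0.05 was found for 3 of the 13 (1602 of all 12069). The median was 0.01, and 7 lay above 0 (51.0% of all 13658 genes). At those shares nothing is read from 0 calls here. March8, a ubiquitin ligase of membrane proteins that include class II molecules, stood at 0.82 ± 0.36 (SE), and the endosomal proteases Ctsl at -0.26 ± 0.11, Ctsd at 0.29 ± 0.13 and Lgmn at 0.35 ± 0.21 in the authors' deposited table. Ctss, the protease known for the last cut of the invariant chain in antigen-presenting cells, had no row. Of 7 co-stimulation and checkpoint ligand genes with an adjusted p, 0 were called by DESeq2, against the same 1.98% of all tested genes. The median was -0.04, and 1 had an unadjusted DESeq2 p under 0.05 (1602 of all 12069). Cd47 was highest at 1.42 ± 0.65, with a mean of 18.5 normalized counts in the authors' deposited table.

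**Figure D3:**
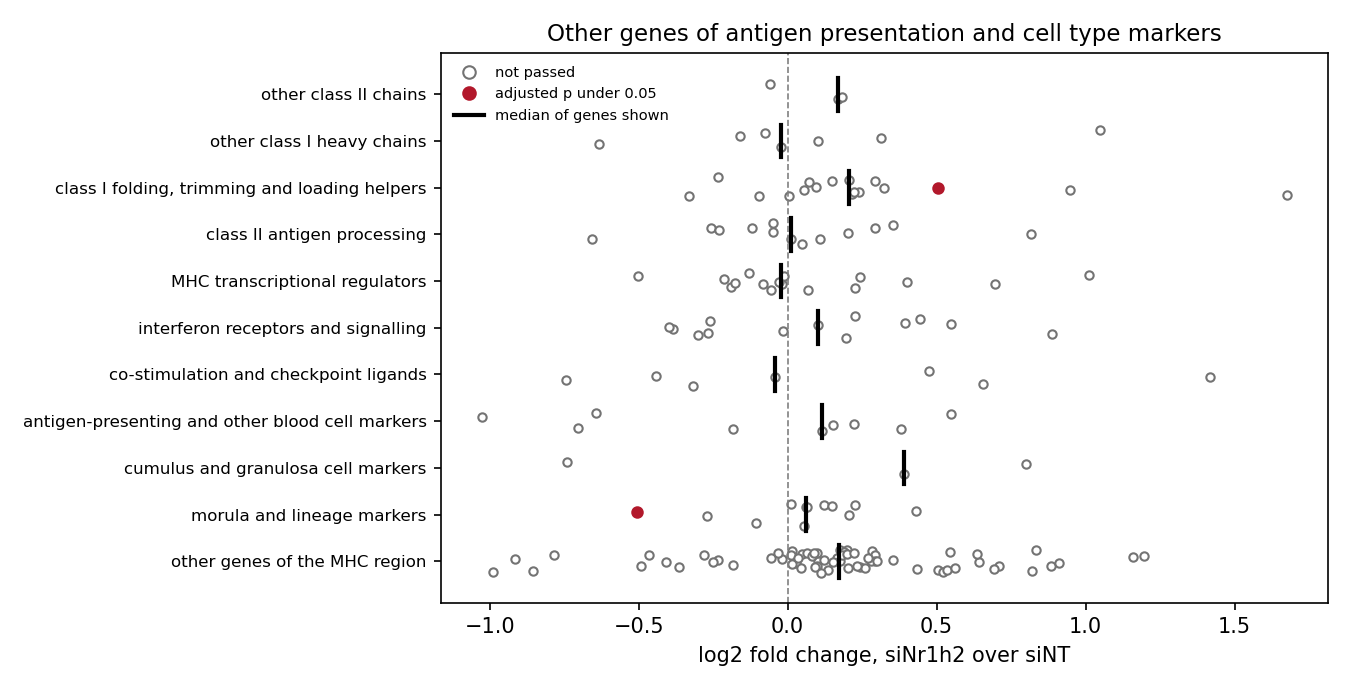
Log2 fold changes (siNr1h2 over siNT, authors' deposited values) of the other genes of antigen presentation and of cell type markers, 1 point per gene with an adjusted p; vertical bars are medians of the genes shown. The 2 filled points, with an adjusted p under 0.05, are Calr at 0.51 and Krt8 at -0.50.

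In bulk samples, more cells of a type and more RNA per cell cannot be told apart, so markers of other cells were read beside the class II genes. Of 31 markers of antigen-presenting and other blood cells, 13 had a row. Of the 9 with an adjusted p, 0 were called in either direction by DESeq2, where 1.98% of all 12069 tested genes were called. The median was 0.12, and 0 had an unadjusted DESeq2 p under 0.05 (1602 of all 12069). The summed implied level of the 13 was 425 normalized counts in siNT and 442 in siNr1h2. The 18 markers with no row included Ptprc (CD45), Itgam, Itgax, Adgre1, Csf1r, Tyrobp, Fcer1g, Lyz2 and Ms4a1. The rule by which a gene received a row is not given in the sources used here, so a missing row is not a measured absence. The markers with the smallest p lay on both sides of 0, with Xcr1 at -1.03 ± 0.65 (SE), Cd79b at 0.55 ± 0.40, Cd52 at -0.64 ± 0.63 and Zbtb46 at 0.38 ± 0.44 in the authors' deposited table. The 2 with the highest means, Cd68 (mean 150) and Spi1 (mean 73.6), stood at 0.12 ± 0.25 and 0.15 ± 0.33 in the authors' deposited table. Of 19 cumulus and granulosa cell markers 5 had a row, with a summed implied level of 561 in siNT and 723 in siNr1h2. None of the 3 with an adjusted p was called by DESeq2 (1.98% of all tested genes were). An unadjusted DESeq2 p under 0.05, found for 1602 of all 12069 tested genes, was seen for 2 of the 3, both above 0. These were Serpine2, which made up most of that sum, at 0.39 ± 0.16 (SE, DESeq2 adjusted p = 0.228, authors' deposited table) and the anti-Müllerian hormone receptor gene Amhr2, with implied means of 47.5 in siNT and 82.8 in siNr1h2, at 0.80 ± 0.35 (DESeq2 adjusted p = 0.276, authors' deposited table). The point estimates of the other 3 markers with a row lay below 0. Star, of steroid synthesis, stood at -0.74 ± 0.50 in the authors' deposited table, Cyp19a1 and Foxl2 had means of 2.89 and 1.94 and no adjusted p, and Fshr, Amh, Inha, Has2 and Ptx3 had no row. The part of blood, cumulus or granulosa cells in the class II values was not tested. All 12 morula and lineage markers had rows, with means from 90.8 to 3621 normalized counts. Of these, 1 was lower and 0 were higher, where 1.52% of all tested genes were lower and 0.456% higher. The lower gene was the keratin gene Krt8 at -0.50 ± 0.14 (DESeq2 adjusted p = 0.0211, authors' deposited table).

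All members but B2m (chromosome 2) and Cd74 (chromosome 18) lie in the MHC on chromosome 17, so their neighbours were read along it. From Tapbp to H2-D1, the outermost members in RefSeq gene order (GRCm38.p6), 73 genes had a row. Of the 65 that are not members, 43 (66.2%) lay above 0, and the median was 0.17 on the log2 scale. Of the 55 of them with an adjusted p, 0 were called by DESeq2 (1.98% of all tested genes were). An unadjusted DESeq2 p under 0.05 was found for 11 of the 55, against 1602 of all 12069. In the rest of chromosome 17, 52.1% of 631 genes lay above 0 with a median of 0.01. Ring1, a Polycomb ubiquitin ligase gene next to H2-K1, stood at 1.16 ± 0.36 (SE, DESeq2 adjusted p = 0.0613), Hspa1b at 0.83 ± 0.29, Atf6b at 0.88 ± 0.35 and Rxrb, which encodes a partner of the liver X receptors, at 0.56 ± 0.23 in the authors' deposited table. In gene order Psmb9, Tap1, Tap2, H2-Ab1, H2-Aa and H2-Eb1 stood at 0.95, 0.89, 1.08, 1.02, -0.06 and 1.48 in the authors' deposited table. The genes with a row on either side, H2-DMb1 and BC051142, stood at 0.18 ± 0.28 and 0.32 ± 0.51. In this stretch only H2-Ab1 and H2-Eb1 passed. All its genes with a row but Psmb9 are members, so nothing is read from how many lay above 0.

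**Figure D4:**
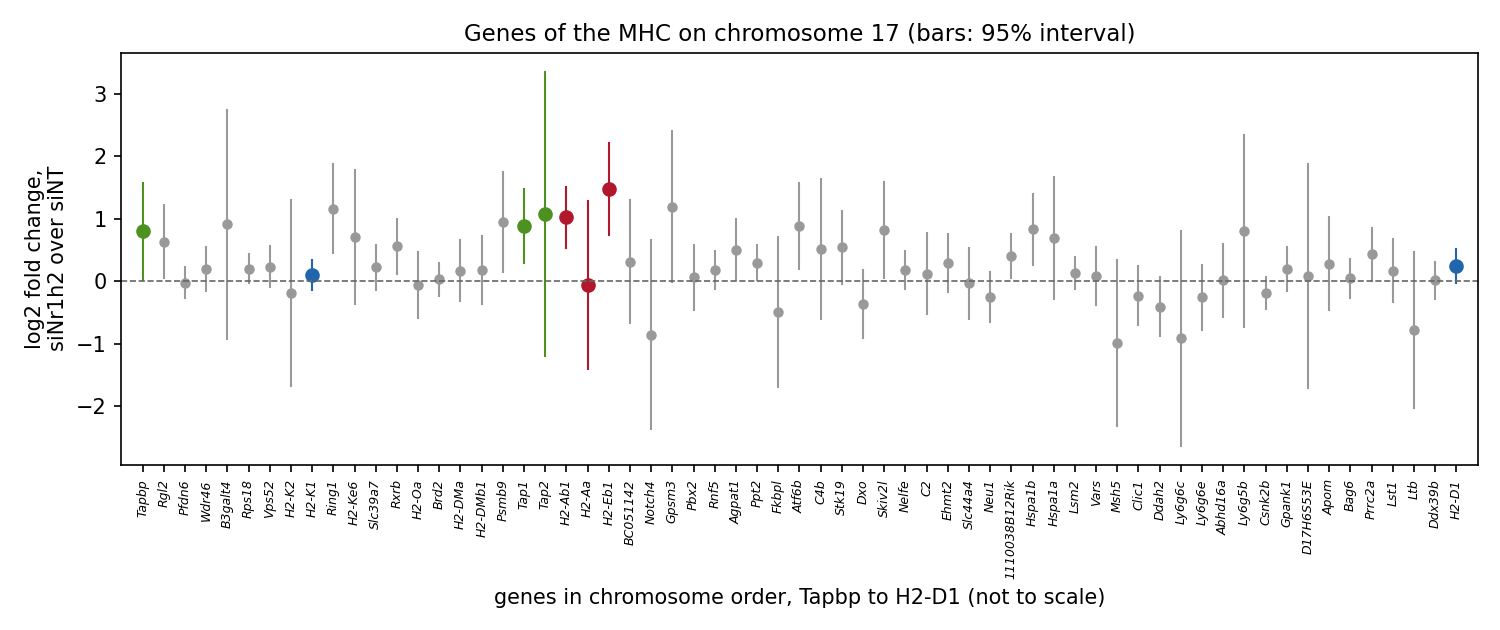
Log2 fold change (siNr1h2 over siNT, authors' deposited values; bars, 95% intervals) of genes from Tapbp to H2-D1 in chromosome order, evenly spaced; genes with an adjusted p, and Tap2, are shown, with members coloured by role. H2-Ab1 at 1.02 and H2-Eb1 at 1.48 stand beside H2-Aa at -0.06, and Psmb9, Tap1 and Tap2 precede them at 0.95, 0.89 and 1.08.

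GC content moved with the fold change. Over 5 equal bins of tested genes by GC content of the longest transcript, the median log2 fold change ran from -0.07 in the lowest bin to 0.12 in the highest. Transcripts of the members had GC contents of 41.2% (B2m) to 57.3% (H2-Ab1), and the MHC genes that are not members had a median of 56.6%, against 49.7% for all genes. With a trend in GC content and length removed (an alternative added once the values were known), H2-Eb1 stood at 1.48 (adjusted p = 0.0121) and H2-Ab1 at 0.91 (adjusted p = 0.0247), from the DESeq2 fold changes and standard errors. Over all alternatives the adjusted p ran from 0.00765 to 1 for H2-Eb1 and from 0.00362 to 0.948 for H2-Ab1. With the trend removed, Tap1 stood at 0.77, Tapbp at 0.67 and Cd74 at 0.34. The part of GC content in these values beyond that was not tested.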

How the data were processed

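Polyadenylated RNA of 4 samples (2 siNT, 2 siNr1h2) was made into libraries with SMART-Seq v4 and Nextera XT, per the labels' protocols. Per the submitters' processing notes, the build was mm9 and the tools included DESeq2, edgeR, STAR, RSEM, Cufflinks 2.2.1 and HTSeq 0.12.4. Their roles, the annotation and the handling of shared reads were not given in the sources used here. What the authors deposited is 1 DESeq2 table with a mean normalized count (a signal value), log2 fold change and SE, Wald statistic (a score), p-value and adjusted p-value per gene. The depth of each sample is unknown, the number of per-sample columns set aside was 0, and no test was rerun. The deposited p equalled the two-sided normal p of the Wald statistic, and Benjamini-Hochberg adjustment over 12069 genes gave the adjusted p. The 1589 genes without one had means up to 8.00.

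Folds, intervals of 1.96 SE and implied group means (2 groups of equal size with the deposited mean and ratio) were computed with Python 3.11.15, pandas 2.3.3 and scipy 1.17.1. The adjustment code was tested on simulated data. GENCODE M21 gave exon lengths and GC content for 99.3% of genes. The members and 14 lists were chosen with earlier results of these data known. Named are all members, Nr1h2, the 3 called genes next above and below H2-Eb1 in fold change, and per list the called genes and otherwise up to 4 with the smallest p. Pdia3, Rfx5, Rfxap, Cd68, Spi1, Foxl2, C2, C4b, BC051142 and genes named as having no row were chosen after values were seen. Alternatives covered threshold, adjustment, low-count filter, centring, minimum fold, a t distribution and the GC trend.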

Additional observations from a re-analysis of the deposited data

How the results depend on the processing

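No paired analysis was possible because the deposited table holds 1 comparison and no values per sample, and for the same reason no replicate could be left out and no second count model was fitted. H2-Eb1 and H2-Ab1 were called, and no other member, at adjusted p thresholds of 0.01 and 0.1, with Benjamini-Hochberg adjustment over all genes or over genes with a mean of at least 50, with both centrings, with a minimum change of 2 times and with the GC and length trend removed. All of these reuse the deposited values of genes picked in this contrast. Their call at 0.1 follows from that at 0.05. The minimum change was set against point estimates only (H2-Ab1 2.03 times, interval from 1.45). Holm adjustment called 0 members (H2-Ab1 at 0.460), and a t distribution with 2 degrees of freedom called 0 members and 0 of all genes (smallest adjusted p 0.948). At an unadjusted p under 0.05 the normal distribution gave 5 members and the t distribution 0 members and 68 genes. With 2 degrees of freedom 0 of all genes reached an adjusted p under 0.05, so that adjusted result does not single out the members. The unadjusted threshold was within reach of other genes, and neither H2-Eb1 nor H2-Ab1 reached it. Few genes reached it at all, 68 of all 12069 against 1602 with the normal distribution. Over all genes, 239 were called, against 109 at a threshold of 0.01, 395 at 0.1, 49 with Holm adjustment, 484 centred on ribosomal protein genes and 90 with a minimum change of 2 times; the cause was not tested for the centring. That centring lowered every log2 fold change by 0.11, to 1.38 for H2-Eb1, 0.92 for H2-Ab1 and -0.01 for H2-K1. Depth limits H2-Aa and Tap2 most, whose SEs were 0.69 and 1.16.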

Other observations

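H2-Q7, a class Ib heavy chain gene, had a standard error of 0.83 at a mean normalized count of 67.7 in the authors' deposited table, where tested genes with means of 50 to 100 had a median of 0.34. Its close relatives H2-Q6, H2-Q8 and H2-Q9 had no row. Complement genes within the MHC did not pass, with C2 at 0.12 ± 0.33 and C4b at 0.52 ± 0.57 (log2, SE, authors' deposited table).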
